A study of Mus musculus with 6 samples.

Results

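The 10 genes by which adipose progenitor cells are commonly sorted or traced, followed here in the fat of obese and lean mice, were Pdgfra, Pdgfrb, Dpp4, Pi16, Cd34, Ly6a, Thy1, Fap, Zfp423 and Cspg4. They were the reporters of the 6-array intensity table whose gene symbol was one of these names or an older synonym. All 10 genes were found, on 13 of 39507 reporters, each under its current name. All 13 reporters were among the 39407 tested, which stood for 25729 gene symbols. Zfp423 encodes a nuclear protein, so the set is not made of surface markers alone.

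The labels name the tissue eWAT and give the age of the mice as 9 weeks. There were 3 ob/ob samples and 3 ob/+ samples, on 1 two-colour array each. With ob/ob, both copies of the leptin gene Lep are mutated and the animals become obese, whereas lean ob/+ controls keep an intact copy. The labels give the genetic background C57BLKS/J with the pool channel, and neither sex nor any treatment. Each sample was labelled with Cy5 and set against the same kind of pool of ob/+ RNA labelled with Cy3, so a log2 ratio of 0 means the level of the lean pool. The column headers give n = 3 for the pool and do not say whether it holds RNA of these ob/+ samples. Nothing in the labels states that the samples are from separate animals, and p-values speak only for the spread among these samples, which may be technical. Of the markers of the labelled tissue, Adipoq, which encodes adiponectin, had a mean intensity of 24.8 in the authors' units, and no adipocyte marker was at 0. Intensities are listed in the order of the deposited table, while ratios are listed by the labels' replicate numbers.

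New fat cells arise from progenitors of the fibroblast kind that lie along vessels and in the connective tissue of the fat pad. Nearly all of them carry the receptor for platelet-derived growth factor encoded by Pdgfra, and most also carry Ly6a (Sca-1) and Cd34. In mouse fat, cells with Dpp4 and Pi16 are early progenitors of the reticular interstitium, and a more committed population lies downstream. Pdgfrb and Cspg4 (NG2) are classic markers of pericytes, the mural cells of small vessels, and Pdgfrb with Zfp423 marks mural preadipocytes. Several of these markers are not restricted to progenitors, since endothelial cells and T cells can carry Ly6a, Cd34, Thy1 or Dpp4.

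Both directions of change were found among the 10 genes. Pdgfra, Dpp4, Ly6a and Pi16 were lower in ob/ob, Pdgfrb, Fap, Zfp423 and Cspg4 were higher, and Cd34 and Thy1 passed no threshold. With 1 reporter per gene, the brightest, 8 of the 10 passed at an adjusted p under 0.05 in limma, 4 in each direction. Among all genes 24.6% passed, 12.4% as higher and 12.1% as lower. With only reporters of a mean intensity of at least 0.1 fitted, which kept all 10 genes, 40.4% of genes passed and the same 8 of the 10. As ratios to the pool, the 3 ob/ob samples lay wholly apart from the 3 ob/+ samples for the same 8 genes, against 40.0% of genes with values on all arrays. Counted by reporter, 20.9% of all passed. The median absolute log2 fold change was 0.65 for the 10 genes and 0.21 for all genes, while the medians with sign were -0.09 and 0.003. Unlike the 40.4%, the 40.0% and the medians of all genes include genes with a mean intensity under 0.1, so they are not matched for brightness. In a bulk sample, fewer cells of a type and less RNA per cell cannot be told apart.

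**Figure D1:**
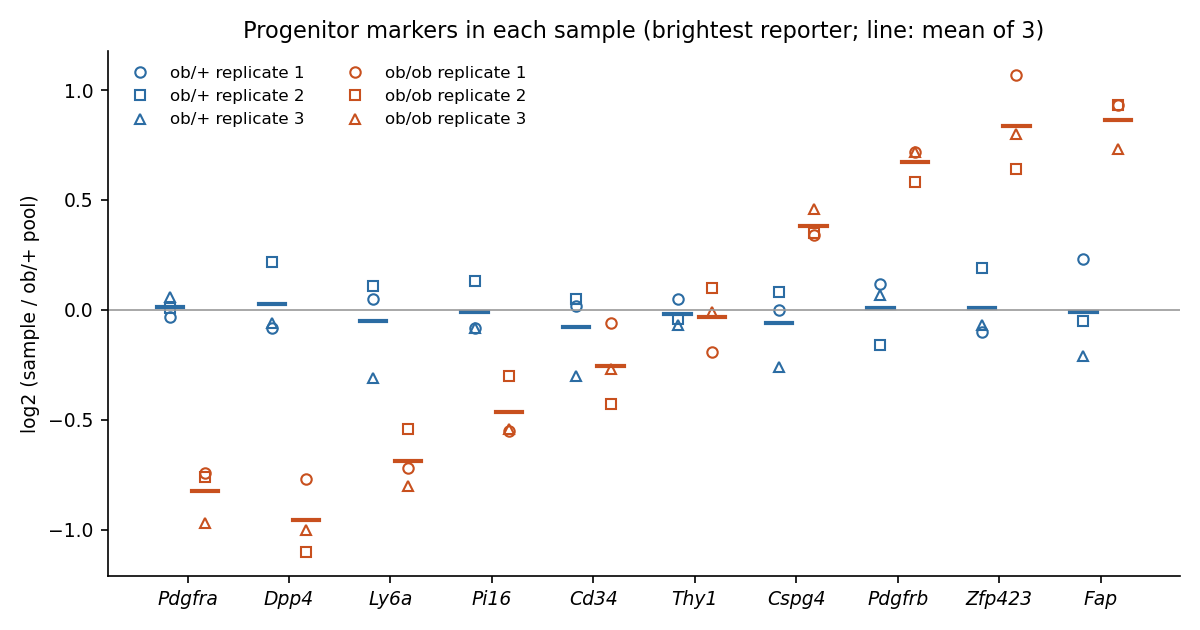
The log2 ratio of sample over ob/+ pool is plotted for the brightest reporter of each gene, with 1 symbol per labelled replicate and a line at the mean of 3. The ob/ob symbols lie below all ob/+ symbols for Pdgfra, Dpp4, Ly6a and Pi16, above them for Cspg4, Pdgfrb, Zfp423 and Fap, and among them for Cd34 and Thy1.

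Promoters are shown for 3 of the genes with the larger changes, Pdgfra and Dpp4, which fell, and Zfp423, which rose, to set the sequence before each start beside the levels. They run from 250 bases before to 50 bases after the annotated start, in RefSeq of GRCm38.p6, 5′ to 3′ on the strand of the gene. For Zfp423 the first of its entries is shown. Capitals mark matches to any of 6 motifs, searched on either strand. The GC box, which Sp1 and related factors bind, was searched as GGGCGG. The box of the nuclear factor Y type, found upstream of many starts, was searched as CCAAT. The TATA box, which places the start of transcription, was searched as TATAAA. The E-box, which basic helix-loop-helix factors bind, was searched as CANNTG. The site of AP-1, the Fos and Jun factors, was searched as TGANTCA. The EBF palindrome, which factors of the Ebf family bind, was searched as TCCC followed after any 2 bases by its own reverse complement. No motif overlapped another in the windows shown.
Pdgfra, chr5:75152001-75152300, plus strand: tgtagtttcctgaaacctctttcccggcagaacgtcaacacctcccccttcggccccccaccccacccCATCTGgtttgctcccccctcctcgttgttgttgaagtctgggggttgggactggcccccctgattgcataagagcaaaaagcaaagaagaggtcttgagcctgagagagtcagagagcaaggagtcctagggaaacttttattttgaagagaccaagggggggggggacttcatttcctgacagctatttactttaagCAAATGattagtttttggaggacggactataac
Dpp4, chr2:62412182-62412481, minus strand: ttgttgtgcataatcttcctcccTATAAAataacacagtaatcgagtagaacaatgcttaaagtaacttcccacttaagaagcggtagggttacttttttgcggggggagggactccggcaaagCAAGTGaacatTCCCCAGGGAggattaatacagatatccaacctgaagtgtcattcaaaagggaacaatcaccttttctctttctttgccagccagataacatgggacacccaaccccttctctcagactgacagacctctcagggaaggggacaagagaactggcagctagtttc
Zfp423, chr8:87959546-87959845, minus strand: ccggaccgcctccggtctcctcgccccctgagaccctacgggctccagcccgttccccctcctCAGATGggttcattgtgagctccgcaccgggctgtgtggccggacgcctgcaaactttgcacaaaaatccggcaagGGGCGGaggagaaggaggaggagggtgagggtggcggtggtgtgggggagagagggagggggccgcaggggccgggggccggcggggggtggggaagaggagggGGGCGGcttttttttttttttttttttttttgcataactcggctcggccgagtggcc
The Dpp4 window holds 1 EBF palindrome, 115 bases before the start, and a TATAAA far upstream, at 227 bases. The Pdgfra window holds 2 E-boxes, and the Zfp423 window 2 GC boxes and 1 E-box. Among 32851 windows of this length an EBF palindrome was found in 0.904%, TATAAA in 13.6%, a GC box in 35.7%, CCAAT in 37.4%, an AP-1 match in 7.81% and an E-box in 72.3%. The GC content was 45.3% for Dpp4, 51% for Pdgfra and 65.7% for Zfp423, with a median of 52.7% over all windows. Of the 10 genes 6 matched an entry of the table used, and of these only Dpp4 held the EBF palindrome and none held an AP-1 match. These matches describe letters only and do not show a site in use.

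The receptors for platelet-derived growth factor moved in opposite directions. Pdgfra encodes the alpha receptor, which defines fibroblast-like progenitors. Its sample intensity was 4.42, 4.32 and 4.42 on the ob/+ arrays and 2.37, 2.57 and 2.38 on the ob/ob arrays. The ob/ob values were all well under the ob/+ values, and the pool channel stayed between 3.95 and 4.67 on all 6 arrays. By replicate number, the log2 ratio to the pool was -0.03, 0.01 and 0.06 in ob/+ replicates 1 to 3 and -0.74, -0.76 and -0.97 in ob/ob replicates 1 to 3. The level in ob/ob was 56% of that in ob/+ (-0.84 ± 0.08 on the log2 scale, SE, n = 3 in each group, adjusted p = 0.00484 in limma). This was the only call of the 10 genes that held under every alternative tried, leaving out each array included (adjusted p up to 0.0469).

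Pdgfrb, the beta receptor, is needed to recruit pericytes to vessels. Its brighter reporter read 5.69, 5.06 and 5.24 on the ob/+ arrays and 8.93, 7.82 and 9.67 on the ob/ob arrays. Every ob/ob value was above every ob/+ value, with the pool between 5 and 5.86. The level in ob/ob was 1.59-fold that in ob/+ (log2 fold change 0.67 ± 0.09, SE, limma adjusted p = 0.0112). A second reporter for the same gene, dimmer than the first, read 3.4, 3.16 and 3.19 in ob/+ and 4.76, 5.36 and 5.44 in ob/ob. It gave nearly the same change, 1.62-fold (0.70 ± 0.07, limma adjusted p = 0.00556). The brighter reporter missed the threshold when ob/ob replicate 3 was left out (0.64, adjusted p = 0.0526) and after quantile normalization of the ratios (0.42, adjusted p = 0.29).

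Within each array the difference between the receptors removes whatever affects both alike. Pdgfra minus Pdgfrb was -0.15, 0.17 and -0.01 on the log2 scale in ob/+ replicates 1 to 3 and -1.46, -1.34 and -1.70 in ob/ob replicates 1 to 3. The balance of alpha to beta receptor was thus 2.83-fold lower in ob/ob (-1.50, pooled SD 0.17), in 3 of 3 samples. With 3 samples against 3 the exact permutation test cannot go below p = 0.1, the value it gave here (two-sided, adjusted p = 0.14 over 7 pairs). Since the ratios of each receptor alone were already apart, in opposite directions, this outcome followed from them. It adds no support to the single-gene results.

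The ligands of these receptors were measured too. Of the 4 genes, Pdgfa and Pdgfc passed as higher and none as lower. Pdgfa, a ligand of the alpha receptor, had log2 ratios of -0.05, 0.06 and 0.01 in ob/+ and 0.27, 0.71 and 0.60 in ob/ob (log2 fold change 0.52 ± 0.13, SE, limma adjusted p = 0.0469). Pdgfc, another ligand of the alpha receptor, had 0.50 ± 0.10 (limma adjusted p = 0.0328). Pdgfb, the main ligand of the beta receptor, had 0.35 ± 0.12 (limma adjusted p = 0.111) and Pdgfd had -0.23 ± 0.10 (limma adjusted p = 0.211). Pdgfa stayed called only when the array left out was ob/ob replicate 1 (otherwise up to 0.148), and Pdgfc lost its call whichever of the 6 was left out (up to 0.087).

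Dpp4 and Fap encode related membrane peptidases, and the reference places them on the same chromosome with Gcg as the 1 protein-coding gene between them. Their transcripts moved apart. Dpp4 (CD26) marks interstitial progenitors and cuts incretin hormones and chemokines. It read 1.01, 1.36 and 1.01 on the ob/+ arrays and 0.64, 0.5 and 0.51 on the ob/ob arrays. The highest ob/ob value was well under the lowest ob/+ value, and the level in ob/ob was 50.7% of that in ob/+ (log2 fold change -0.98 ± 0.13, SE, limma adjusted p = 0.0096). The call held without any 1 array (adjusted p up to 0.048) and was lost after quantile normalization (-0.66, adjusted p = 0.164).

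Fap encodes fibroblast activation protein, a peptidase of activated stroma that also cuts collagen fragments. It read 1, 0.9 and 0.71 in ob/+ and 1.51, 1.73 and 1.38 in ob/ob. The groups did not overlap, and the level in ob/ob was 1.83-fold higher (log2 fold change 0.87 ± 0.13, SE, limma adjusted p = 0.0147). The ob/+ samples were themselves spread, with log2 ratios of 0.23, -0.05 and -0.21 in replicates 1 to 3. It missed the threshold when ob/ob replicate 1 (0.84, 0.0501) or replicate 2 (0.84, 0.0569) was left out and after quantile normalization (0.52, adjusted p = 0.392).

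Set against each other within an array, Dpp4 minus Fap was -0.32, 0.26 and 0.15 in ob/+ replicates 1 to 3 and -1.70, -2.02 and -1.73 in ob/ob replicates 1 to 3. This was a 3.61-fold shift (-1.85, pooled SD 0.25), the largest of the 7 pairs, and the exact permutation test again gave its smallest possible p of 0.1 (adjusted p = 0.14). Here too the ratios of each gene alone were already apart in opposite directions, so that p-value was fixed by them. Dpp4 is also known from epithelia, and epithelial transcripts differed strongly between the groups. Of 10 epididymal and other epithelial markers 6 were lower and none was higher, with a summed intensity of 22.9 to 45.8 in ob/+ and 0.95 to 1.23 in ob/ob, and none at 0. Within ob/+ the median log2 ratio of those markers was -0.86, -0.09 and 0.46 in replicates 1 to 3, and Dpp4 had -0.08, 0.22 and -0.06 in the same order. Crisp1, which the epididymis secretes, had a log2 fold change of -7.07 ± 0.61 (SE, limma adjusted p = 0.00443). The part of these cells in the level of Dpp4 was not tested.

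**Figure D2:**
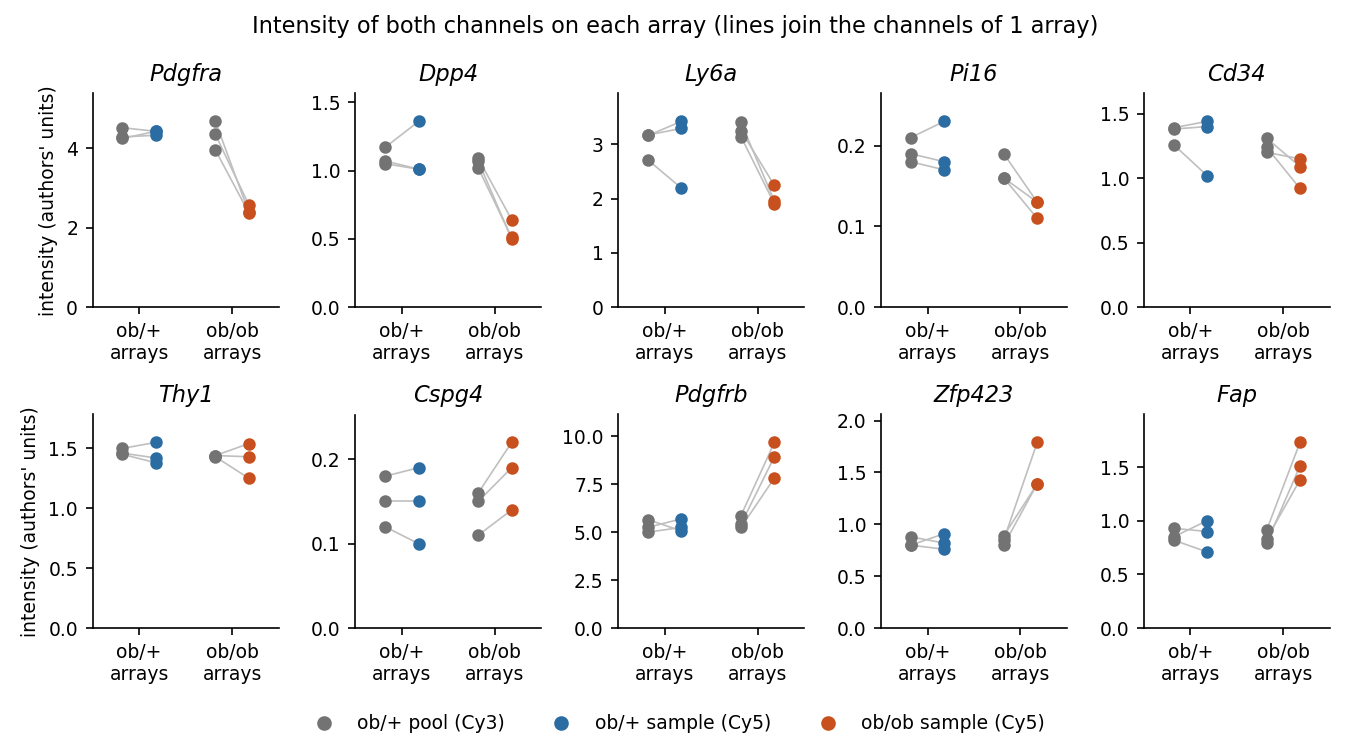
Linear intensity in the authors' units is plotted for both channels of each array, one panel per gene, with grey points for the ob/+ pool, coloured points for the sample and a line joining the channels of 1 array. Each ob/ob sample point lies below the pool point of its own array for Pdgfra, Dpp4, Ly6a and Pi16 and above it for Cspg4, Pdgfrb, Zfp423 and Fap, while for Cspg4 the pool itself runs from 0.11 to 0.18.

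Pi16 encodes a secreted or membrane-anchored peptidase inhibitor that marks the same interstitial cells as Dpp4. It was dim, at 0.18, 0.23 and 0.17 in ob/+ and 0.13, 0.13 and 0.11 in ob/ob. The groups did not overlap, and the level in ob/ob was 73.1% of that in ob/+ (log2 fold change -0.45 ± 0.10, SE, limma adjusted p = 0.0376). The deposited step of 0.01 in intensity could move this change by up to 0.18. The call survived the loss of ob/ob replicate 2 alone, and each other array left out ended it (up to 0.123). Quantile normalization (-0.28, adjusted p = 0.42) and the sample channel by itself (-0.38, adjusted p = 0.24) also ended it. In the sample channel setting, here and below, log2 intensities were first centred on the median of each array.

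Dpp4 fell further than Pi16 in each ob/ob sample. The within-array difference was -0.01, 0.09 and 0.03 in ob/+ and -0.22, -0.80 and -0.46 in ob/ob (-0.53, pooled SD 0.21, exact permutation p = 0.1, adjusted p = 0.14). Pi16 was much dimmer, at a mean intensity of 0.17 against 0.958 for Dpp4, and rounding could move its change by up to 0.18. The sizes of the 2 falls are therefore not measured equally well. Of 14 further genes listed for interstitial progenitors, 3 were higher, 2 were lower and 9 did not pass, with a median log2 fold change of 0.05. The counts of this and the other lists stand beside 12.4% of all genes called higher and 12.1% called lower. Bmp7, a bone morphogenetic protein, fell by 2.82 ± 0.23 on the log2 scale (SE, limma adjusted p = 0.00418). Efhd1, a mitochondrial calcium-binding protein, fell by 1.89 ± 0.33 (limma adjusted p = 0.021). Pcolce2, an enhancer of procollagen processing, rose by 1.61 ± 0.23 (limma adjusted p = 0.0127) and Limch1 by 0.87 ± 0.14 (limma adjusted p = 0.0182). The call of Bmp7 held without any 1 array. After quantile normalization Bmp7 had -1.74 (adjusted p = 0.0532). In ob/+ replicates 1 to 3 its ratios were -0.26, -0.09 and 0.12, where the median of the epithelial markers was -0.86, -0.09 and 0.46. The part of epithelial cells in the level of Bmp7 was not tested. The calls of Efhd1 (ob/+ replicate 1 or 2, ob/ob replicate 1 or 3, up to 0.0814), Pcolce2 (ob/+ replicate 1, ob/ob replicate 2 or 3, up to 0.053) and Limch1 (ob/+ replicate 1 or 3, ob/ob replicate 3, up to 0.0715) were each lost without the arrays named.

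Companion lists of other progenitor states were also tested, to be read beside the 12.4% of all genes called higher and 12.1% called lower. Of 11 tested genes of committed preadipocytes 2 were higher and 1 was lower, with a median of 0.16. Col15a1, a basement membrane collagen, rose by 0.62 ± 0.06 (limma adjusted p = 0.00496), and Fabp4, the fatty acid binding protein of maturing fat cells, fell by 0.84 ± 0.14 (limma adjusted p = 0.0191). Pparg, a nuclear receptor that drives fat cell formation, had 0.07 ± 0.12 (limma adjusted p = 0.704). Fabp4 kept its call only when ob/ob replicate 2 was the array left out (otherwise up to 0.0684). Of 6 genes of the CD142+ regulatory cells 1 was lower, Gdf10, a secreted factor of the same family as Bmp7 (-1.94 ± 0.20, limma adjusted p = 0.00587), and none was higher. F3, which encodes CD142 itself, had -0.97 ± 0.32 (limma adjusted p = 0.103). Of 5 genes of fibro-inflammatory progenitors 1 was higher, Cd9 (0.80 ± 0.19, limma adjusted p = 0.048), and 2 were lower, Ly6c1 (-0.36 ± 0.06, 0.0182) and Loxl1 (-0.42 ± 0.07, 0.0197). Leaving out ob/+ replicate 1, ob/+ replicate 2 or ob/ob replicate 3 ended all 3 of those calls. Cd9 also needed ob/+ replicate 3 and ob/ob replicate 2 (up to 0.151), Ly6c1 needed ob/+ replicate 3 (up to 0.0704) and Loxl1 needed ob/ob replicate 1 (up to 0.0729). From the sample channel by itself Ly6c1 had -0.20 (adjusted p = 0.486), Loxl1 had -0.12 (0.691) and Fabp4 had -0.52 (0.155).

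Ly6a, Cd34 and Thy1 are surface proteins shared with endothelial or blood cells. Ly6a encodes Sca-1, a lipid-anchored protein used with Pdgfra to sort progenitors. It read 3.29, 3.42 and 2.19 in ob/+ and 1.9, 2.24 and 1.95 in ob/ob. The third of these ob/+ values came close to the ob/ob samples on the intensity scale and fell below the highest of them. As ratios to the pool of the same array the groups did not overlap, at 0.05, 0.11 and -0.31 in ob/+ replicates 1 to 3 and -0.72, -0.54 and -0.80 in ob/ob. The level in ob/ob was 64.1% of that in ob/+ (log2 fold change -0.64 ± 0.14, SE, limma adjusted p = 0.0369). Only the loss of ob/+ replicate 3 left that call in place (-0.77, adjusted p = 0.0269), and each other array left out ended it (up to 0.122). That replicate had the lowest ob/+ ratio for 6 of the 10 genes and for 10 of 14 interstitial companions. It was also lowest for 8 of the 10 committed companions with values on every array, but for 2 of 11 mural genes and 0 of 10 epithelial markers. The remaining lists ran from 5 of 5 fibro-inflammatory genes to 0 of 4 B cell genes, and no share over all genes is given. The call of Ly6a was lost under other settings too. Ly6a did not pass after quantile normalization (-0.42, adjusted p = 0.412) or from the sample channel by itself (-0.26, adjusted p = 0.499). The sample channel value includes the centring on array medians, so it differs from the change in the intensities printed above.

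Cd34 encodes a sialomucin of progenitor and endothelial surfaces. Its ratios were 0.02, 0.05 and -0.30 in ob/+ replicates 1 to 3 and -0.06, -0.43 and -0.27 in ob/ob. The groups overlapped, and the log2 fold change of -0.17 had a 95% confidence interval from -0.55 to 0.20 in limma (adjusted p = 0.48). Relative to Ly6a, Cd34 was higher in the ob/ob samples, by 0.66, 0.11 and 0.54 against -0.03, -0.06 and 0.00 in ob/+ (0.47, pooled SD 0.21, exact permutation p = 0.1, adjusted p = 0.14). Pdgfra minus Ly6a, the pair of the common sort, differed between groups by -0.20, about its pooled SD of 0.20 (exact permutation p = 0.4, adjusted p = 0.4). It was -0.04 without ob/+ replicate 3.

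Thy1 encodes CD90, a lipid-anchored protein of fibroblasts and T cells. Its bright reporter read 1.55, 1.42 and 1.38 in ob/+ and 1.25, 1.54 and 1.43 in ob/ob. The groups overlapped, and the log2 fold change of -0.01 had a 95% confidence interval from -0.24 to 0.21 (limma adjusted p = 0.969). Of the 3 reporters of this gene the others were close to the step of 0.01, at mean intensities of 0.0408 and 0.0367. They gave 0.11 ± 0.10 and 0.49 ± 0.22 (SE, limma adjusted p = 0.5 and 0.203), where rounding could move the values by up to 0.76 and 0.88. Ly6a minus Thy1 was 0.01, 0.15 and -0.24 in ob/+ replicates 1 to 3 and -0.53, -0.64 and -0.79 in ob/ob, a shift of -0.63 (pooled SD 0.17, exact permutation p = 0.1, adjusted p = 0.14).

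Endothelial and lymphocyte markers were read from the same fit. Of 11 endothelial genes none passed in limma, and 1, Robo4, a receptor of endothelial cells, had an unadjusted p under 0.05. Their summed intensity was 42.7 to 50.2 in ob/+ and 35.4 to 46 in ob/ob, with a median log2 fold change of -0.07, and Pecam1 (CD31) had 0.08 ± 0.09 (SE, limma adjusted p = 0.602). None of 9 T and NK cell genes passed in limma, and 0 had an unadjusted p under 0.05. Their summed intensities overlapped, at 2.41 to 2.96 in ob/+ and 2.28 to 2.93 in ob/ob. The median log2 fold change of these 9 genes was 0.38, and their median ratio was 0.00, 0.58 and 0.26 in ob/ob replicates 1 to 3. Of 4 B cell genes 0 passed and 1 had an unadjusted p under 0.05. No marker of these lists was at 0.

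Zfp423 encodes a zinc finger protein that commits cells to the fat lineage and binds EBF factors. It read 0.82, 0.91 and 0.76 in ob/+ and 1.79, 1.39 and 1.39 in ob/ob. All ob/ob values were above all ob/+ values, and the level in ob/ob was 1.78-fold higher (log2 fold change 0.83 ± 0.14, SE, limma adjusted p = 0.0196). In ob/ob the ratios were 1.07, 0.64 and 0.80 in replicates 1 to 3, so the rise differed in size between samples. Zfp423 missed the threshold when ob/+ replicate 1 (0.78, 0.0736), ob/+ replicate 3 (0.80, 0.0759) or ob/ob replicate 3 (0.86, 0.0725) was left out, and after quantile normalization (0.61, adjusted p = 0.235).

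Of 9 genes listed as partners of Zfp423 or its bone morphogenetic protein input, 3 were lower, Ebf1 and Ebf2 among them, and none was higher, with a median log2 fold change of -0.16. Ebf2, a factor of adipogenic precursors and brown fat identity, had ratios of 0.10, -0.03 and -0.11 in ob/+ and -1.24, -1.39 and -1.50 in ob/ob. It fell by 1.36 ± 0.09 on the log2 scale (SE, limma adjusted p = 0.0028). Ebf1, an early factor of adipogenesis, fell by 0.64 ± 0.08 (limma adjusted p = 0.0094). The calls of Ebf1 and Ebf2 held without any 1 array. Ebf3, of the same family, had -0.07 ± 0.15 (limma adjusted p = 0.784). With the sample channel alone Ebf1 had -0.44 (adjusted p = 0.162), and after quantile normalization -0.47 (0.122). Smad5, a transducer of bone morphogenetic protein signals, fell by 0.32 ± 0.08 (limma adjusted p = 0.0496), and stayed called only when the array left out was ob/ob replicate 1 (otherwise up to 0.148). From the sample channel by itself it had -0.12 (adjusted p = 0.619). Bmp4, a ligand upstream of Zfp423, had -0.27 ± 0.07 (limma adjusted p = 0.0597). It was dim, at a mean intensity of 0.0883, so the step of 0.01 limits this value.

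Cspg4 encodes the NG2 proteoglycan of pericytes. It was dim, at 0.15, 0.19 and 0.1 in ob/+ and 0.19, 0.14 and 0.22 in ob/ob. These intensities overlapped between groups, but so did the pool, which ran from 0.11 to 0.18. As ratios within the array the groups separated, at 0.00, 0.08 and -0.26 in ob/+ replicates 1 to 3 and 0.34, 0.35 and 0.46 in ob/ob. The level in ob/ob was 1.36-fold higher (log2 fold change 0.44 ± 0.10, SE, limma adjusted p = 0.0415), of which rounding could account for up to 0.20. Cspg4 missed the threshold when ob/+ replicate 1 (0.48, 0.101) or any of the ob/ob arrays was left out (0.41 to 0.47, adjusted p up to 0.132). Quantile normalization (0.34, 0.397) and the sample channel by itself (0.61, 0.194) also ended the call.

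Pdgfrb and Cspg4 are both mural markers. Their within-array difference shifted by 0.22 between groups, with a pooled SD of 0.21 (exact permutation p = 0.3, adjusted p = 0.35). It was 0.07 without ob/+ replicate 2 and 0.35 without ob/+ replicate 3. Of 11 other mural genes 1 was higher, 2 were lower and 8 did not pass, with a median log2 fold change of -0.06 and a summed intensity of 39 to 55.3 in ob/+ and 31.6 to 36.8 in ob/ob. Rgs5, a pericyte marker, had 0.19 ± 0.09 (SE, limma adjusted p = 0.212), and Notch3, the Notch receptor of mural cells, rose by 0.18 ± 0.04 (limma adjusted p = 0.0438). Cnn1 and Tagln, contractile proteins of smooth muscle, fell by 3.95 ± 0.74 and 0.98 ± 0.20 (limma adjusted p = 0.0249 and 0.0286). In ob/+ the ratio of Cnn1 ran from -1.94 to 0.75. Cnn1, Tagln and Notch3 stayed called only when ob/+ replicate 2 was the array left out (otherwise up to 0.0956, 0.099 and 0.109). From the sample channel by itself Notch3 had 0.40 (adjusted p = 0.0824).

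**Figure D3:**
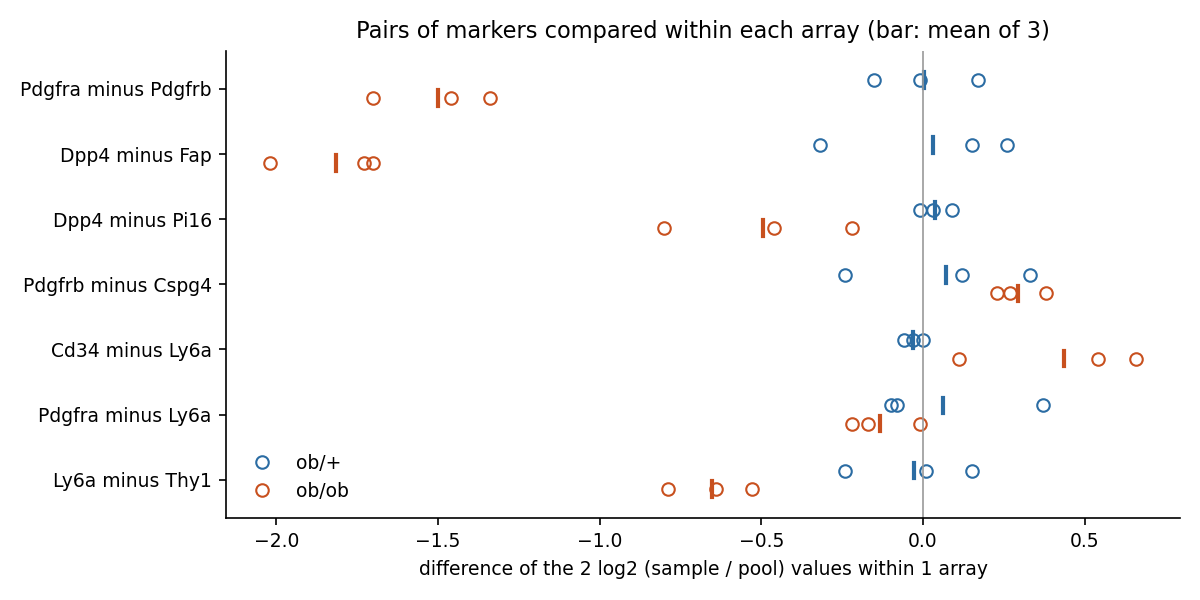
The difference between the log2 ratios of a pair of genes within 1 array is plotted for the 7 pairs, with 1 circle per sample and a bar at the mean of 3. The ob/ob circles lie far left of the ob/+ circles for Pdgfra minus Pdgfrb and Dpp4 minus Fap, while the groups overlap for Pdgfrb minus Cspg4.

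Transcripts listed for other cell types and for proliferation also differed between the genotypes, and the part of such cells in the changes was not tested. Of 8 tested stromal fibroblast genes 4 were lower and 1 was higher, with a median of -0.53. The 6 of them with values on every array, which leaves out Dcn and Fbln1, had a summed intensity of 63.6 to 68.4 in ob/+ and 39.6 to 54.6 in ob/ob. Col1a2, a chain of type I collagen, fell by 0.38 ± 0.05 (SE, limma adjusted p = 0.0125), although it had -0.04 with the sample channel alone (adjusted p = 0.899). Lum, which encodes lumican, rose by 0.94 ± 0.11 (limma adjusted p = 0.00781). The larger falls were those of Dpt (-1.15 ± 0.18, limma adjusted p = 0.0148) and Dcn (-1.02 ± 0.14, limma adjusted p = 0.0181). Both calls were lost when certain single arrays were left out (up to 0.0643 and 0.0745). Of 11 macrophage genes 9 were higher and 1 was lower, at a summed intensity of 33 to 34.9 in ob/+ and 68.3 to 144 in ob/ob. Adgre1, a surface receptor of macrophages, rose 6.5-fold (limma adjusted p = 0.0122), a call that needed ob/+ replicates 1 and 3 and ob/ob replicate 3 (up to 0.0544 without them). Of 10 mesothelial genes 4 were lower and none was higher, at 18.8 to 23.7 in ob/+ and 5.53 to 12.3 in ob/ob, and Wt1 fell by 1.40 ± 0.18 (limma adjusted p = 0.00924). Besides Wt1, the called genes were the keratins Krt8, Krt18 and Krt19, and the remaining 6 genes did not pass. The median ratio of the mesothelial list was -0.32, -1.82 and -1.26 in ob/ob replicates 1 to 3. Of 8 tested adipocyte genes 5 were lower and 1, Lep, was higher, at 110 to 113 in ob/+ and 41.4 to 60 in ob/ob. Of 5 tested Schwann cell genes 2 were lower and 1 was higher, at 1.08 to 1.23 in ob/+ and 0.72 to 0.83 in ob/ob. Of 8 proliferation genes 7 were higher and none was lower, Cdk1 among them (1.00 ± 0.11, limma adjusted p = 0.00703), at 7.89 to 8.06 in ob/+ and 10.5 to 22.2 in ob/ob. No marker of these lists was at 0. After quantile normalization Col15a1, Lum, Col1a2, Wt1 and Adipoq were among the genes that did not pass, and 13 companion genes passed, Ebf2, Gdf10, Cdk1 and Adgre1 among them.

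**Figure D4:**
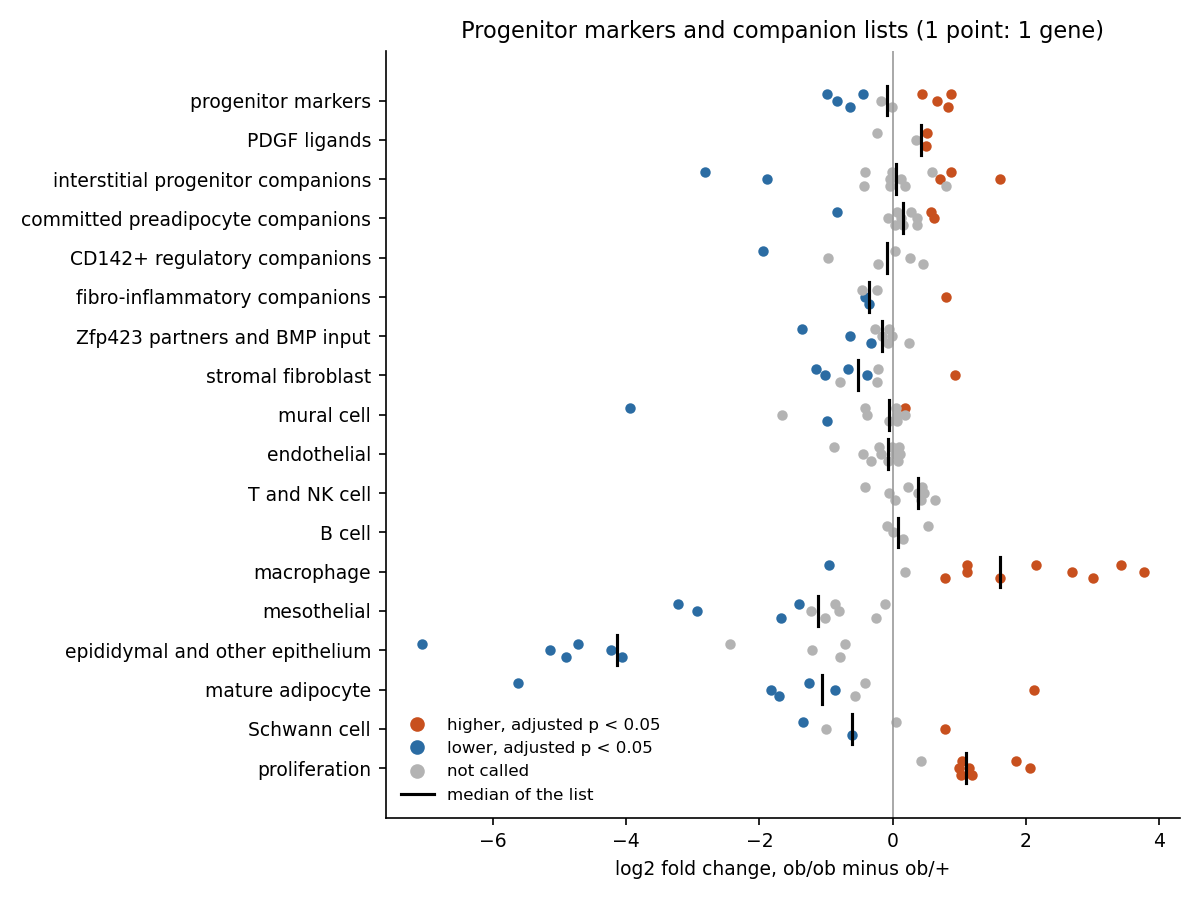
The log2 fold change, ob/ob minus ob/+, is plotted for the 10 progenitor markers and for each gene of the companion lists, with orange for genes called higher, blue for genes called lower, grey for genes not called and a black bar at the median of a list. Of the progenitor markers 4 lie right of 0 and all are called, and the others lie left of it, 4 of them called, with a median of -0.09, whereas the macrophage and proliferation lists lie mostly right of 0 and the epithelial list lies left of it.

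The authors' own test of each array gave a per-sample view. In the authors' deposited table, the p-value of sample against pool for Pdgfra was 5.24e-05 to 0.00177 on the ob/ob arrays and 0.75 to 0.96 on the ob/+ arrays. For Zfp423 the authors' deposited table gives 1.06e-06 to 0.000408 on the ob/ob arrays and 0.55 to 0.67 on the ob/+ arrays. For Ly6a it is 2.57e-06 to 0.00103 and 0.07 to 0.73 in the authors' deposited table, and for Cspg4 it is 0.03 to 0.06 and 0.3 to 0.98. These values compare the channels of 1 array, which on the ob/ob arrays are an ob/ob sample and the ob/+ pool in different dyes. They do not measure the spread among samples. Whether the pool shares RNA with the ob/+ samples is not stated, so their high p-values are no independent contrast.

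**Figure D5:**
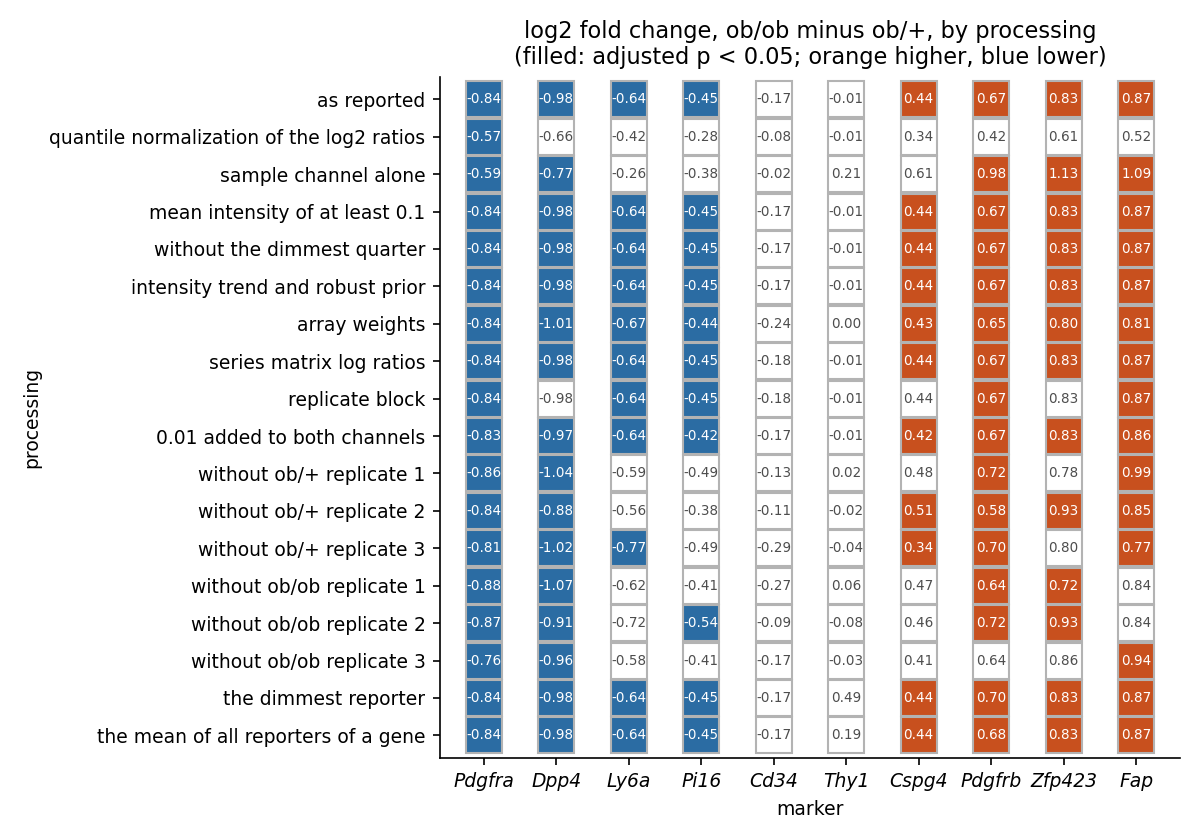
Each cell gives the log2 fold change of 1 gene under 1 way of processing, and filled cells passed at an adjusted p under 0.05, orange as higher and blue as lower. Only the Pdgfra column is filled throughout, and only Pdgfra is filled after quantile normalization, while no called gene changes direction in any row.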

How the data were processed

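Per the labels' protocols, Trizol RNA was amplified in 2 rounds before labelling. The submitters' processing notes name Agilent Feature Extraction 8.5.1.1. The authors deposited linear intensities for the sample and the pool of each array. Their normalization is not given in the sources used here. Of the values, 97.45% come in steps of 0.01. Per the file headers, the authors also deposited a p-value per reporter and array. The authors deposited log10 ratios in the series matrix, which differ from the intensity ratios by at most 0.017 on the log2 scale. Table columns call the lean samples and the pool wt where the labels say ob/+, which was followed here, and carry sample numbers other than the labels' replicate numbers, so they were assigned to groups only, and values by replicate number come from the series matrix. No column was left unassigned (0).

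Log2 of sample over pool intensity was fitted for all reporters with values on at least 2 arrays of each group, using R 4.3.3 and limma 3.58.1 (moderated test of lmFit and eBayes), ob/ob minus ob/+, two-sided, Benjamini-Hochberg over 39407 reporters, threshold 0.05. Symbols were updated through a reference gene table (3147 reporters). In the lists tested, Dcn lacked a value on 1 ob/+ array, Fbln1 on 1 ob/ob array and Col4a2 on 1 of each. Pairs of genes were compared within arrays by exact permutation tests. The number of arrays limits precision. The fit was tested on simulated data. Named genes were the 10 genes, the PDGF ligands, up to 4 genes per list with the lowest p and 7 landmarks, from which examples are given. The members and lists were chosen with earlier results of these data known. Figures were drawn with matplotlib 3.10.9 under Python 3.11.15.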

Additional observations from a re-analysis of the deposited data

How the results depend on the processing

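Of 18 alternatives, 8 left the count of 8 called progenitor genes as it was. It was 1 (Pdgfra) after quantile normalization of the log2 ratios, 5 with the sample channel alone, 2 (Pdgfra and Dpp4) at an adjusted p under 0.01 and 3 to 6 without 1 array. The count of 8225 called reporters was 750 after quantile normalization, 2693 at an adjusted p under 0.01 and 4125 to 6952 without 1 array, and that of 61 called companion genes was 13 after quantile normalization. Of the 61, 29 were called without any 1 array left out. No called gene of the 10 changed direction under any alternative. Quantile normalization moved the pair difference of Pdgfra and Pdgfrb from -1.50 to -0.99, that of Dpp4 and Fap from -1.85 to -1.18 and that of Ly6a and Thy1 from -0.63 to -0.41. The cause was not tested. The sample channel alone moved Cd34 minus Ly6a from 0.47 to 0.25, and it moved the median log2 fold change of all genes from 0.003 to 0.131. That setting centred log2 sample intensities on the median of each array, which shifts all genes of an array alike. The array medians were low, at 0.11 to 0.15, where the step of 0.01 is coarse. Without each array in turn, the pair differences stayed within 1 pooled SD of the values reported, although Pdgfrb minus Cspg4 ran from 0.07 to 0.35 and Pdgfra minus Ly6a from -0.28 to -0.04. Replicate numbers did not pair the samples (deviations of same-numbered samples correlated at r = -0.062 to 0.062 over 39224 reporters). With a replicate block, 3290 reporters and 5 of the 10 genes passed, without Dpp4 (adjusted p = 0.0668), Zfp423 (0.0957) and Cspg4 (0.136). The step of 0.01 in the intensities limits Pi16, Cspg4 and the dim Thy1 reporters, and dim genes of the lists such as Bmp4, Cd8a, Cd3d and Cd5.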
